A study of Mus musculus with 3 samples.

Results

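The 10 genes Nkx2-5, Gata4, Gata5, Gata6, Tbx5, Tbx20, Hand1, Hand2, Mef2c and Mef2a encode transcription factors of the cardiac core, and their transcripts were read in hearts of mouse embryos at embryonic day 15.5. On Agilent whole-mouse-genome arrays they were found by gene name, every gene probe named for a member being kept, which gave 21 probes of 41174 and 10 genes of 20024 gene symbols that matched a reference table. Each of 3 two-colour arrays carried RNA pooled from 2 Lrrc10-/- hearts in the red channel (Cy5) and RNA pooled from 2 littermate wild-type (Lrrc10+/+) hearts in the green channel (Cy3), all on a C57BL/6 background and bred from Lrrc10+/- parents. The Lrrc10 deletion was inherited, and the pools were of whole hearts, so that muscle, endothelial, epicardial and valve cells contribute together. Per the study's methods the arrays are independent biological replicates, and each array gives 1 value of the comparison. No array had the dyes swapped, and dye and genotype cannot be told apart. An adult age that also stands among the Cy3 labels was set aside for the embryonic one.

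These factors bind each other's regulatory DNA and many act as protein partners on shared enhancers of heart muscle genes. NKX2-5 is the homeobox factor of early cardiac progenitors, GATA4, GATA5 and GATA6 are zinc finger factors, TBX5 and TBX20 belong to the T-box family, HAND1 and HAND2 are basic helix-loop-helix factors best known for their parts in left and right ventricle formation, and MEF2A and MEF2C are MADS-box factors of muscle differentiation. The comparison asks whether the messages of this network differ between hearts with and without LRRC10, a leucine-rich repeat protein of cardiac muscle cells.

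A two-colour ratio is given below as log2 of Cy5 over Cy3 after background correction and loess normalization within the array, so that 0 is no difference and 1 is a doubling. The targeted gene itself went against the labels. Processed signals of Lrrc10 were 6294, 8521 and 12637 in Cy5 on replicates 1, 2 and 3, against 281, 237 and 200 in Cy3, a mean log2 ratio of 4.41 ± 0.40 (SD, n = 3; limma adjusted p of 0.000381). Whether this probe lies in the deleted part of the gene is not given in the sources used here. Directions are therefore stated for the channel labelled Lrrc10-/-, and higher and lower would change places throughout if the channel labels were exchanged. The arrays also differed in depth of signal, with 63.4% to 88.7% of gene probes well above background in Cy5 and 68.9% to 93.1% in Cy3, replicate 3 being the dimmest in both. Over tested probes the log2 ratios of replicates 1 and 2 correlated with r = 0.51, and those of replicate 3 with r = 0.22 against each of the others. This correlation is across 28315 probes, which are not independent replicates.

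No core factor passed the test in either direction. A probe was tested where it was well above background on all 3 arrays in Cy5 or on all 3 in Cy3, and 20 of the 21 core probes qualified, with at least 1 for each gene. Limma with an adjusted p under 0.05 called 0 of the 20 higher in the channel labelled Lrrc10-/-, where 1.40% of all tested probes were called. It called 0 of the 20 lower, where 0.00353% of all tested probes were. At an unadjusted p under 0.05, 1 core probe was higher (background 9.06%) and 2 were lower (background 4.27%). These were a Gata4 probe above 0 and a Gata6 and a Mef2a probe below 0. The methods' t-test, run on the same values, called 0 of all tested probes after adjustment, the core probes included. At an unadjusted p under 0.05 it called 0 core probes in either direction. Over all 28315 tested probes it called 1529 higher and 1103 lower.

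Each gene was represented by its brightest tested probe among those named for it in all 3 files. The mean log2 ratio was above 0 for 2 genes, Gata4 and Hand1, and below 0 for 8, with a median of -0.11 against 0.01 over all tested probes. That median was -0.04 without replicate 1, -0.05 with processed signals and -0.17 with median centring. The median of the 10 genes was -0.18, -0.02 and -0.01 on replicates 1, 2 and 3, lowest on replicate 1. For 8 of the 10 genes the 95% interval of the mean log2 ratio included 0, and the exceptions were Gata4 and Mef2a. The interval is limma's for a single probe, before any adjustment over probes. In whole hearts fewer cells of a type and less RNA per cell cannot be told apart. Only 3 arrays stand behind each value, which limits the precision of all of them.

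**Figure D1:**
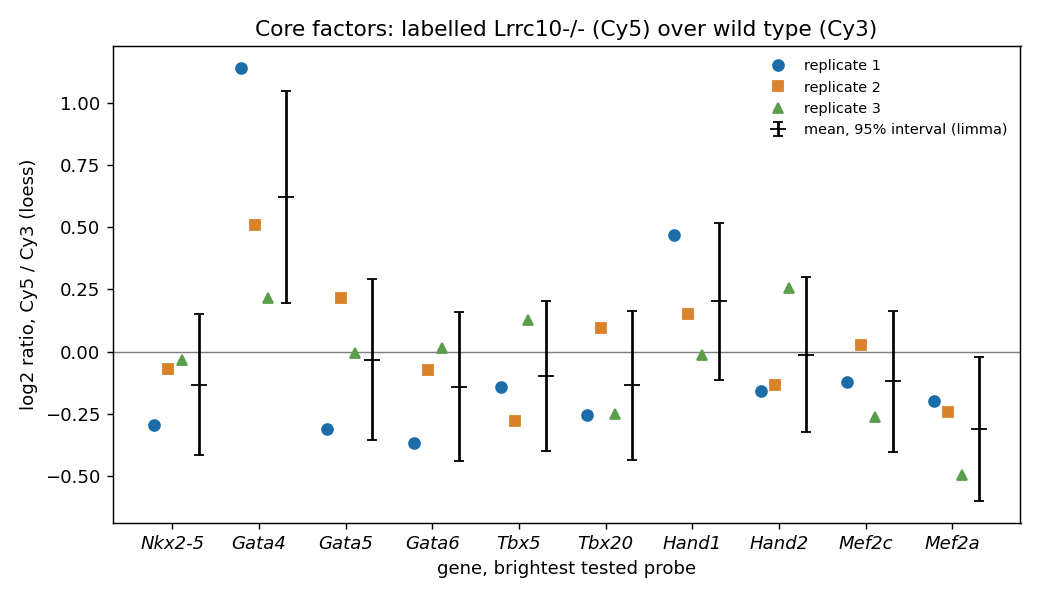
Log2 ratio of Cy5 (labelled Lrrc10-/-) over Cy3 (labelled wild type) for each core factor, 1 probe per gene. Coloured symbols are the 3 arrays, and the black bar is the mean with its 95% limma interval. Gata4 has the highest mean, 0.62, with replicate 1 at 1.14, and the means of the other genes lie between -0.31 and 0.20.

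Nkx2-5, the homeobox factor of cardiac progenitors, was read by 1 bright probe. Its processed signal was 19510, 21416 and 34400 in Cy5 on replicates 1, 2 and 3, against 19812, 20210 and 37052 in Cy3. The channels were close on every array, with Cy5 above Cy3 on replicate 2 only. After loess the log2 ratio was -0.29, -0.07 and -0.04, a mean of -0.13 ± 0.14 (SD, n = 3), and the 95% interval ran from -0.42 to 0.15 with a limma adjusted p of 0.674. On the linear scale that interval runs from 0.750-fold to 1.11-fold. The software's own log2 ratio on replicate 2 was 0.08.

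**Figure D2:**
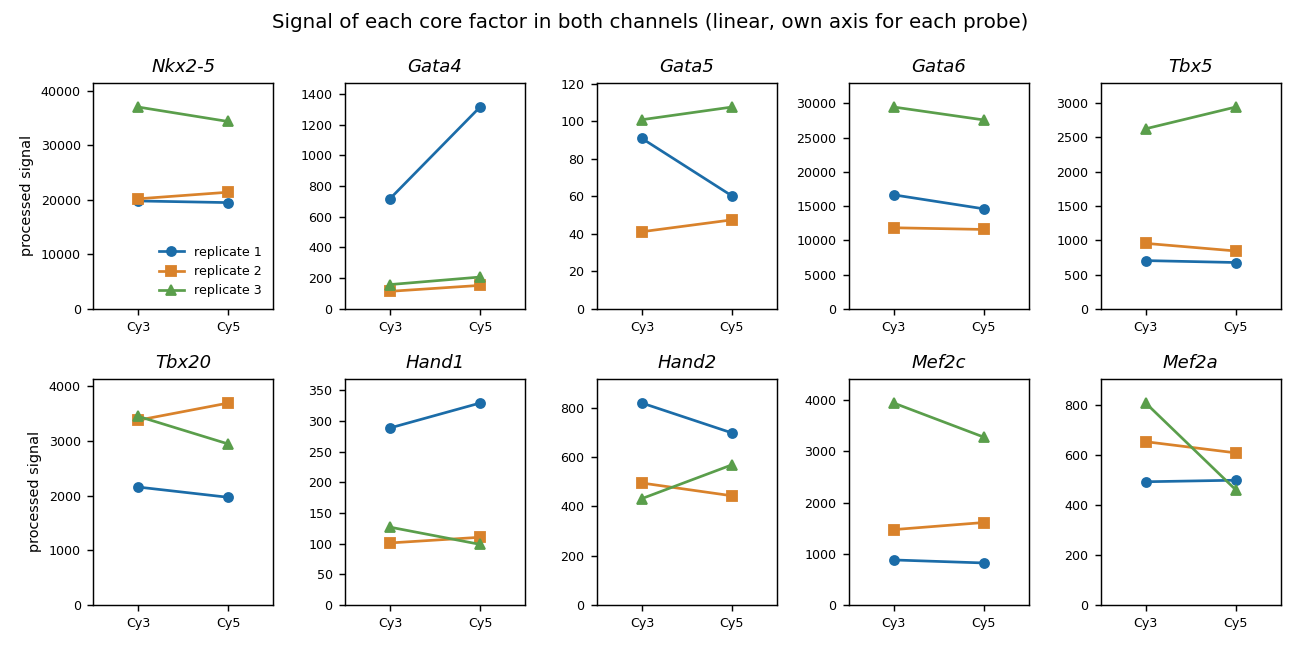
Processed signal (background-subtracted and dye-normalized by the scanner software, linear axis from 0) of each core factor's brightest tested probe in Cy3 and Cy5. Lines join the channels of 1 array, and each probe has its own axis because signals of different probes are not comparable. The lines are nearly flat for Nkx2-5 and Gata6, steepest for Gata4 on replicate 1, and cross for Mef2a on replicate 3.

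Gata4, a zinc finger partner of NKX2-5 and TBX5, had the highest mean log2 ratio of the core, but its probes differed in direction. The array holds a pair of Gata4 probes, and their first 30 bases are shown because the 2 stretches give opposite signs. The transcript position of the first is 2160 and that of the second 2938. The file maps 22 bases of the first probe to chr14:63817752-63817773 (mm9, minus strand) and all of the second to chr14:63818147-63818206 (mm9, minus strand). These genome positions put the first probe downstream of the second, whereas the transcript positions put it upstream. With 22 bases mapped and this order reversed, it is uncertain whether the first probe reads Gata4 alone. Whether either lies in a coding exon or an untranslated region was not examined, as no genome of that build was used here.
Gata4 A_51_P492355: gaagcccaccttggctgcaagcacagcaca
Gata4 A_52_P4201: ctagaaaatacagactgtttgcaaaataaa

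The brighter Gata4 probe, A_51_P492355, had processed signals of 1315, 153 and 207 in Cy5 on replicates 1, 2 and 3, against 719, 114 and 158 in Cy3. Cy5 was above Cy3 on all 3 arrays, and both channels were far brighter on replicate 1 than on the others, although the median signal of gene probes in Cy5 was 183, 226 and 142. Its log2 ratio was 1.14, 0.51 and 0.22, and the value on replicate 1 lay at or above 99.4% of tested probes of that array, against 77.8% on replicate 3. The mean was 0.62 ± 0.47 (SD, n = 3), 1.54-fold, with a 95% interval of 0.20 to 1.05, an unadjusted p of 0.0102 and a limma adjusted p of 0.211. Without replicate 3 the mean was 0.83 and the limma adjusted p 0.00422, the only setting among those run that brought a core factor past the threshold, while the calls over all tested probes went from 395 to 1533 higher. Without replicate 1 the mean was 0.36 with a limma adjusted p of 0.815.

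The other Gata4 probe, A_52_P4201, is printed on the array 10 times. Its processed signal was 418, 161 and 80.5 in Cy5 on replicates 1, 2 and 3, against 633, 176 and 105 in Cy3, with Cy5 below Cy3 each time. The log2 ratio averaged over the spots was -0.41, -0.05 and -0.05, a mean of -0.17 ± 0.21 (SD, n = 3; limma adjusted p of 0.614). The software's log2 ratios, without an offset, were -0.60, -0.13 and -0.38, a mean of -0.37. Repeated spots also show the spread within an array, here of log2 ratios that include the offset. The 10 spots ranged from -0.74 to -0.09 on replicate 1 and from -0.12 to 0.04 on replicate 3, with SDs of 0.24, 0.13 and 0.06 on the 3 arrays, close to the median spot SDs of 0.23, 0.16 and 0.06 over the 175 probes printed repeatedly. On replicate 1, where the Gata4 probes lay 1.55 apart, none of the 10 spots reached the value of the brighter probe.

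For Gata4 the difference between the probes was 0.79 on average (95% interval 0.23 to 1.35, limma adjusted p of 0.181 over 6316 pairs of probes of 1 transcript). Across the core, 0 of 6 such pairs differed at an adjusted p under 0.05, where 1.04% of all pairs did. The G and C content was 53.3% for the brighter Gata4 probe and 28.3% for the other. Over all tested probes the median log2 ratio on replicate 1 was -0.02 for probes with at most 35% G and C and 0.02 for those over 45% and up to 55%, and the part of base content in the Gata4 difference was not tested.

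Gata5, the GATA factor of the endocardium, was dim. Its single probe had processed signals of 60.3, 47.5 and 108 in Cy5 on replicates 1, 2 and 3, against 90.9, 41.2 and 101 in Cy3, well above background in both channels on all arrays by the software's flag. Cy5 was lower than Cy3 on replicate 1 and higher on the others. The log2 ratio was -0.31, 0.22 and -0.0036, a mean of -0.03 ± 0.26 (SD, n = 3), and the 95% interval ran from -0.36 to 0.29 with a limma adjusted p of 0.943. Without replicate 1 the mean changed sign to 0.11.

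Gata6, a GATA factor of myocardium, outflow tract and smooth muscle, was read by 3 probes. The brightest, A_51_P411917, had processed signals of 14607, 11595 and 27586 in Cy5 on replicates 1, 2 and 3, against 16644, 11841 and 29467 in Cy3. Cy5 was slightly below Cy3 each time, and the log2 ratios of -0.37, -0.07 and 0.02 averaged -0.14 ± 0.20 (SD, n = 3; limma adjusted p of 0.675). A further probe, A_52_P176245, had log2 ratios of -0.20, -0.15 and -0.91, a mean of -0.42 ± 0.42 (SD, n = 3) with an unadjusted p of 0.0417 and a limma adjusted p of 0.355. Its value on replicate 3 was undercut or equalled by 0.976% of tested probes, while the brightest Gata6 probe stood near 0 on the same array. The dimmest probe, A_52_P590175, was well above background in Cy5 on 1 array only, and its mean log2 ratio was 0.06 (limma adjusted p of 0.891). There the software's ratio without an offset ran from -1.80 on replicate 3 to 0.54 on replicate 2.

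Tbx5, the T-box factor that partners NKX2-5 and GATA4, was read by a pair of probes. The brighter, A_52_P523712, had processed signals of 675, 843 and 2940 in Cy5 on replicates 1, 2 and 3, against 703, 954 and 2623 in Cy3. Cy5 was below Cy3 on replicates 1 and 2 and above it on replicate 3, with log2 ratios of -0.14, -0.28 and 0.13. The mean was -0.10 ± 0.21 (SD, n = 3), and the 95% interval ran from -0.40 to 0.20 with a limma adjusted p of 0.785. The other probe, whose mapped ends lie 11563 bases apart and which therefore spans an intron, had a mean of 0.05 ± 0.20 (SD, n = 3; limma adjusted p of 0.909). After loess its array values of 0.26, 0.01 and -0.13 ran opposite in sign to those of the brighter probe on each array. Its processed signals were 196, 94.1 and 40.3 in Cy5, against 201, 104 and 77.7 in Cy3. The software's log2 ratios were -0.03, -0.14 and -0.95, against -0.06, -0.18 and 0.16 for the brighter probe. By these the probes differed in sign on replicate 3 only.

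Tbx20, a T-box factor of chamber myocardium and endocardium, was read by 4 tested probes. The first 30 bases of the 2 brightest are given because they diverged on replicate 3. They map to chr9:24526210-24526269 and chr9:24527750-24527809 (mm9, minus strand), respectively.
Tbx20 A_51_P427619: actaaggagcatgtaagacactgcatttaa
Tbx20 A_52_P429876: gtagttggtttccagacaaaatacagatgt

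The brightest Tbx20 probe had processed signals of 1970, 3696 and 2947 in Cy5 on replicates 1, 2 and 3, against 2157, 3383 and 3452 in Cy3. Its log2 ratio was -0.25, 0.10 and -0.25, a mean of -0.14 ± 0.20 (SD, n = 3; limma adjusted p of 0.689). A_52_P429876 had processed signals of 1007, 1004 and 1324 in Cy5, against 962, 721 and 4861 in Cy3, so that on replicate 3 Cy3 alone stood high. The log2 ratio there was -1.68, a value that 0.0424% of tested probes of that array undercut or equalled, against -0.04 and 0.32 on the other arrays. Its mean of -0.46 therefore came with an SD of 1.07 (n = 3), and its limma adjusted p was 0.598. The remaining Tbx20 probes, both dim, had means of 0.14 and 0.0048 and limma adjusted p-values of 0.690 and 0.990. On replicate 3 all 4 Tbx20 probes were below 0 after loess, at -0.25, -1.68, -0.04 and -0.08 from the brightest down. By these values the difference was large for 1 of them. The 2 dim probes there had processed signals of 24.3 and 34.6 in Cy5, against 40.7 and 55.7 in Cy3. Their software ratios without an offset were -0.75 and -0.68.

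Hand1, a helix-loop-helix factor of the left ventricle and outer curvature, had processed signals of 329, 110 and 98.7 in Cy5 on replicates 1, 2 and 3, against 289, 101 and 127 in Cy3. Cy5 was above Cy3 on replicates 1 and 2 and below it on replicate 3. The log2 ratio was 0.47, 0.15 and -0.02, a mean of 0.20 ± 0.25 (SD, n = 3), and the 95% interval ran from -0.11 to 0.52 with a limma adjusted p of 0.563. From the software's processed signals the mean was -0.01, so that even the sign of the Hand1 ratio depended on the processing.

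Hand2, the related factor of the right ventricle and outflow tract, was read by a pair of overlapping probes. The last 30 bases of the upstream probe and the first 30 of the downstream probe are printed with the 23 bases they share in capitals. Their mapped ends are chr8:59801214-59802573 and chr8:59801251-59802610 (mm9, plus strand), 1360 bases each for probes of 60 bases, and both therefore cross an intron.
Hand2 A_52_P420479: aggaagaAAGAGCTGAATGAGATCTTGAAA
Hand2 A_51_P147850: AAGAGCTGAATGAGATCTTGAAAagcacag

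The downstream and brighter Hand2 probe had processed signals of 698, 443 and 569 in Cy5 on replicates 1, 2 and 3, against 819, 495 and 432 in Cy3. The upstream probe had 511, 649 and 368 in Cy5, against 582, 841 and 307 in Cy3. Both put Cy5 below Cy3 on replicates 1 and 2 and above it on replicate 3. Log2 ratios were -0.16, -0.13 and 0.26 for the downstream probe and -0.17, -0.37 and 0.19 for the upstream one, with means of -0.01 ± 0.23 and -0.11 ± 0.28 (SD, n = 3; limma adjusted p-values of 0.980 and 0.770). Their difference averaged -0.10 with a 95% interval of -0.42 to 0.22, the smallest distance between probes of any core gene with more than 1 tested probe.

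Mef2c, the MADS-box factor needed for right ventricle formation, had processed signals of 819, 1610 and 3281 in Cy5 on replicates 1, 2 and 3, against 878, 1472 and 3947 in Cy3. Its log2 ratio was -0.12, 0.03 and -0.26, a mean of -0.12 ± 0.14 (SD, n = 3), and the 95% interval ran from -0.40 to 0.16 with a limma adjusted p of 0.713. A second Mef2c probe, A_52_P282110, was well above background on 2 arrays only in each channel and is the 1 core probe that was not tested. Its processed signals on the dim array, replicate 3, were 25.9 in Cy5 and 4.71 in Cy3.

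Mef2a, the MADS-box factor most abundant in postnatal heart muscle, had a mean log2 ratio of -0.31 by its brightest probe, and after loess its probes again differed in sign. Without replicate 3 that probe and the brightest Gata6 probe both stood at -0.22. The upstream Mef2a probe A_52_P311841 and the downstream probe A_52_P290579 map 345 transcript bases apart. Their positions are chr7:74379743-74379802 and chr7:74379398-74379457 (mm9, minus strand), respectively. Their first 30 bases are shown for comparison.
Mef2a A_52_P311841: agaaagcccttctgtaaaacgcatgaggat
Mef2a A_52_P290579: tcgtaagataaagtttttgcagagaaacgt

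The upstream and brighter Mef2a probe had processed signals of 498, 607 and 460 in Cy5 on replicates 1, 2 and 3, against 492, 652 and 806 in Cy3. The channels were close on replicates 1 and 2, and Cy3 stood higher on replicate 3. Its log2 ratio was -0.20, -0.24 and -0.50, below 0 on all 3 arrays, with a mean of -0.31 ± 0.16 (SD, n = 3), 0.806-fold, an unadjusted p of 0.0376 and a limma adjusted p of 0.341. The downstream probe had log2 ratios of 0.27, 0.56 and -0.23 and a mean of 0.20 ± 0.40 (SD, n = 3; limma adjusted p of 0.636). By the software's ratio the downstream mean was -0.03 and the upstream mean -0.30, so that the opposite signs depended on the processing. After loess the upstream probe was the lower of the pair on every array, with differences of -0.47, -0.80 and -0.27. The difference averaged -0.51 with a limma adjusted p of 0.179 over all pairs. One more probe, A_52_P175157, carries the name Mef2a in the file of replicate 1 only and a transcript identifier in the others. It is counted among the 21 but was not used to represent the gene, and its mean was -0.15 (limma adjusted p of 0.645).

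**Figure D3:**
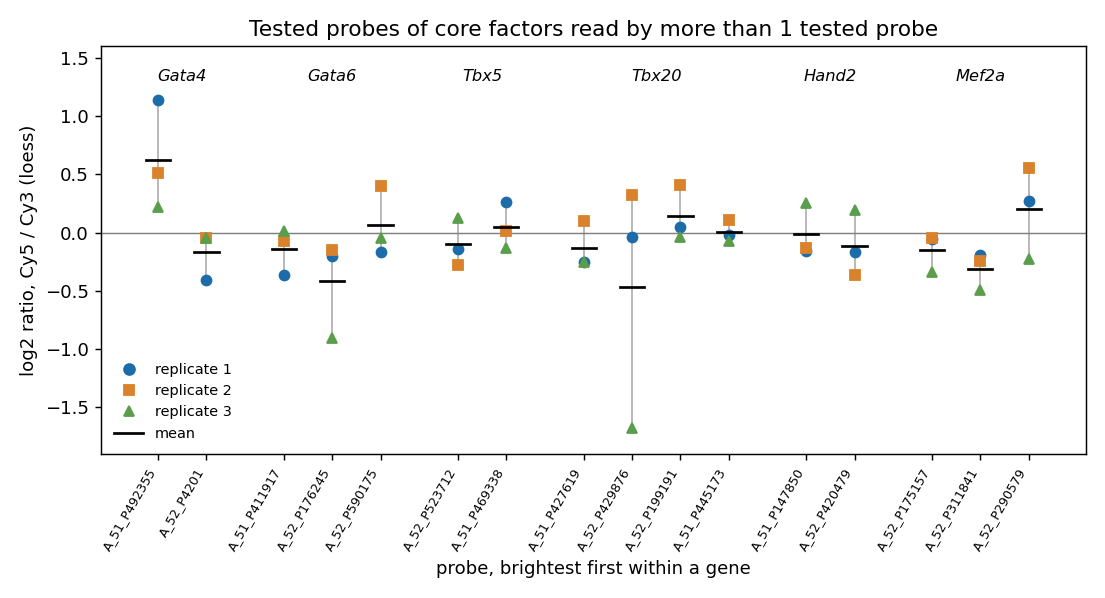
Log2 ratio of Cy5 over Cy3 for every tested probe of the 6 core factors with more than 1 tested probe, brightest first within a gene. Symbols are the 3 arrays, grey lines join the lowest and highest array, and black bars are means. The 2 Gata4 probes have means of 0.62 and -0.17, and 1 Tbx20 probe lies at -1.68 on replicate 3 only.

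How far the probes of 1 gene lay apart varied within the core. The range of mean log2 ratios was 0.79 for Gata4, 0.51 for Mef2a, 0.14 for Tbx5 and 0.10 for Hand2, each with 2 probes named alike in all files, where the median over 4498 genes with 2 tested probes was 0.18 and the 95th percentile 0.58. For Gata6, with 3 probes, it was 0.48 against a median of 0.31. For Tbx20, with 4 probes, it was 0.61 against 0.39. The median of all tested probes named for a gene in all 3 files was also used in place of the brightest. Gata4 then stood at 0.23, Mef2a at -0.06, Gata6 at -0.14 and the median of the 10 genes at -0.06. For Mef2a this leaves out the tested probe named for it in 1 file only, at -0.15.

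Direction across arrays after loess was counted as well. Of the 20 tested core probes 1, the brighter Gata4 probe, was above 0 on all 3 arrays, where 19.3% of all tested probes were. Below 0 on all 3 arrays were 5 of the 20, where 17.6% of all tested probes were. These 5 were the Nkx2-5 probe, the repeated Gata4 probe, A_52_P176245 of Gata6, and A_52_P311841 and A_52_P175157 of Mef2a. By the software's ratio only the Gata4 and Gata6 probes among them were below 0 on all 3 arrays. That ratio was 0.08 for Nkx2-5 on replicate 2 and 0.02 for A_52_P311841 on replicate 1. For A_52_P175157 it was 0.16 and 0.18 on replicates 1 and 2. By a rule of the kind in the study's methods (at least 1.2-fold in 1 direction on all 3 arrays by the software's ratio, the software's p under 0.05 on each, processed signal of at least 20 in both channels) 0 of 19 core probes were higher, with 2.14% of all eligible probes, and 0 of 19 were lower, with 0.132%. Without the p criterion 1 core probe was higher, the brighter Gata4 probe, whose software p was 0.0565 and 0.0790 on replicates 2 and 3.

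The wider network was read with 42 other cardiac transcription factors and cofactors, such as Srf, Isl1, the Irx and Hey factors and chromatin proteins. Of these, 41 were tested (Mef2b was not), and limma called 0 higher and 0 lower, with 3 and 3 at an unadjusted p under 0.05, where 9.06% of all tested probes were higher and 4.27% lower. Mean log2 ratios were above 0 for 22 genes and below 0 for 19, with a median of 0.01. The 4 highest were Sall4 at 0.50, Smyd1 at 0.37, Myocd at 0.36 and Jarid2 at 0.33, and the 4 lowest were Wwtr1 at -0.60, Irx5 at -0.34, Irx4 at -0.27 and Foxc1 at -0.27, with limma adjusted p-values from 0.226 to 0.392. By the software's ratio the means of the 4 highest were 0.66, 0.12, 0.13 and 0.12 in the same order. Those of the 4 lowest were -0.51, -0.36, -0.18 and -0.20. Second probes gave -0.07 for Sall4, -0.17 for Jarid2, -0.33 for Myocd, a coactivator of SRF, and, for Wwtr1, which encodes the coactivator TAZ, 0.0013. A further probe of Crebbp, which encodes a histone acetyltransferase and was named after its values were seen, had a mean of 0.92 over the 2 arrays with a value (limma adjusted p of 0.101), and the other Crebbp probes stood at -0.15 and 0.32. Irx4, an Iroquois factor of ventricular muscle, was close on the 3 arrays at -0.27, -0.29 and -0.24, as was Foxc1 at -0.26, -0.29 and -0.25. Irx5 was called lower without replicate 3, at -0.52 (limma adjusted p of 0.0409).

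Genes that the core factors are known to regulate in heart, 24 in all, were all tested, and limma called 0 in either direction, with 1 higher (background 9.06%) and 0 lower (background 4.27%) at an unadjusted p under 0.05. Mean log2 ratios were above 0 for 9 and below 0 for 15, with a median of -0.07. Among them 6 (Nppa, Myl2, Actc1, Tnni3, Ankrd1 and Atp2a2) had a brightest probe saturated in both channels on at least 1 array, where its ratio cannot be read. For the other 18 the counts were 8 and 10 with a median of -0.03. Further tested probes of Nppa and Atp2a2 were not saturated in both channels on any array. Their means were -0.37 for Nppa and -0.39 and 0.02 for Atp2a2 (limma adjusted p-values of 0.373, 0.339 and 0.960). The study reports Nppa and Actc1 as upregulated in embryonic Lrrc10-/- hearts, by arrays and by qRT-PCR. Of the 18, Mb and Tnnc1 were saturated in Cy5 on 2 arrays, Nppb and Hopx in Cy5 on 1 and Myh6 in Cy3 on 1, so that their values are not exact ratios. Of these 18 the highest were Smyd1 at 0.37 (a histone methyltransferase that also stands in the list above), myoglobin (Mb) at 0.35, the sodium-calcium exchanger Slc8a1 at 0.20 and the natriuretic peptide Nppb at 0.14. Among the lowest were the alpha-myosin heavy chain Myh6 at -0.21, desmin (Des) at -0.16 and the semaphorin receptor Plxna2 at -0.14. After loess Smyd1 was even across the arrays, at 0.36, 0.42 and 0.33, yet its second probe had a mean of 0.02. The software's log2 ratios of the first Smyd1 probe were 0.04, 0.19 and 0.13. Means by the software's ratio were 0.12 for Smyd1, 0.02 for Mb, 0.09 for Slc8a1 and 0.13 for Nppb. They were -0.20 for Myh6, -0.17 for Des and -0.07 for Plxna2. Nppb was at -0.23, -0.20 and 0.86 after loess, the last with Cy5 saturated, and its second probe at 0.53, -0.03 and 0.53. Further tested Slc8a1 probes had means of -0.20, -0.0052, 0.18, -0.14 and 0.13. For the brightest probes of these 7 genes the limma adjusted p-values lay between 0.235 and 0.820.

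**Figure D4:**
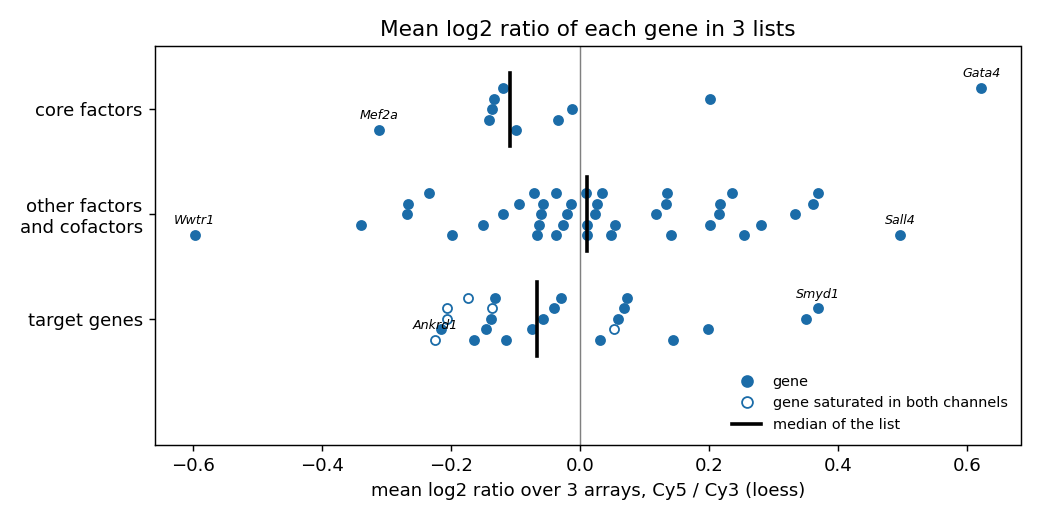
Mean log2 ratio over 3 arrays, Cy5 over Cy3, for the 10 core factors, 41 other cardiac factors and cofactors and 24 target genes, 1 probe per gene. Open circles are genes saturated in both channels on at least 1 array, black bars are list medians (-0.11, 0.01 and -0.07), and vertical position within a list carries no value. No gene shown was called.

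Markers of ventricular muscle were bright, with Myh7, Myl2, Myl3 and Tnnt2 saturated in both channels on all 3 arrays. Of the 4 others (Irx4, Ryr2, Actn2 and Ttn) 1 was above 0 and 3 below, 0 called, and Actn2 was -0.59, -0.28 and 0.05. The study reports Actn2 as upregulated in embryonic Lrrc10-/- hearts, by arrays and by qRT-PCR. Endocardial and endothelial markers (Pecam1, Cdh5, Kdr, Tek, Tie1, Emcn, Nfatc1, Npr3) had 4 of 8 above 0, and their summed processed signal ran from 25168 to 48024 in Cy5 and from 25481 to 54535 in Cy3. Epicardial markers (Wt1, Tcf21, Upk3b, Msln, Aldh1a2, Krt19) had 3 of 6 above 0, and of the smooth muscle markers Myh11, Tagln and Cnn1 0 of 3 were, Acta2 being saturated in both channels. Of the valve mesenchyme markers (Postn, Sox9, Twist1, Col1a1, Vcan) 4 of 5 were above 0, and Vcan was called higher at 1.42 (limma adjusted p of 0.0324). It was the 1 marker called, where 1.40% of all tested probes were called higher. With processed signals, the series table, scaled arrays or the methods' t-test 0 of all tested probes were called, Vcan included. Of the atrial markers Nppa, Myl7 and Myl4 were saturated in both channels on at least 2 arrays by their brightest probes, and Sln and Nr2f2 lay at 0.84 and 0.01, neither called. The neuronal markers Stmn2 and Elavl4 lay at 0.06 and -0.24. Lung and foregut markers (Nkx2-1, Sftpc, Foxa2, Cdh1) were well above background on at most 2 arrays in each channel. The liver markers Alb and Afp lay at 0.81 and 0.82 on replicate 1 and at 0.17 and 0.77 on replicate 3. Their summed processed signal was 20929 in Cy5 and 11886 in Cy3 on replicate 1, and 1382 and 679 on replicate 3. On replicate 2 they lay at -2.74 and -5.15, with a summed processed signal of 944 in Cy5 and 23146 in Cy3, and their part in the ratios of the core factors was not tested. Apoa1, Ttr and Fga were not tested.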

How the data were processed

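Per the file headers, spots were quantified in Agilent Feature Extraction, version 9.1.3.1 on a G2505B scanner for replicate 1 and version 10.7.3.1 on a G2505C scanner for the others. The deposited intensity columns hold mean signals, local background and processed signals, which the authors' software background-subtracted and dye-normalized. The deposited log10 ratios (scanner files and series table) are of processed Cy5 over Cy3, and the deposited p-value of a spot tests that ratio within 1 array. Here mean signals were corrected with normexp (offset 50) and normalized by loess within each array (limma 3.58.1, R 4.3.3), with control spots at weight 0. Non-uniform spots stayed in these steps and were left out when spots of 1 probe were averaged. For 28315 tested probes, limma tested the log2 ratios of the 3 arrays against 0 (two-sided, Benjamini-Hochberg over all tested probes). Some probes had fewer ratios, where a non-uniform spot was left out. An exact sign permutation test of 3 arrays cannot give a p below 0.25, and none was used. Core probes are those named for a member, ignoring case. Named besides are Lrrc10 and, in the lists of other factors and targets, any gene called and the 4 highest and 4 lowest genes not saturated in both channels. Some genes this picks are not reported here. Markers are given by counts. Of 27379 probes with a RefSeq accession, 26932 matched the reference table (GRCm38.p6), and positions are the files' own (mm9). Members, lists and tests were chosen with earlier results of these data known. The fit was tested on simulated data. Alternatives covered background, normalization, filters, test, software version, probe choice and leaving out replicates. Lists hold general knowledge. Probe exons were not analysed here.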

Additional observations from a re-analysis of the deposited data

How the results depend on the processing

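With 17 alternatives for each core factor, Nkx2-5, Gata6, Tbx5, Tbx20, Mef2c and Mef2a kept their sign and stayed uncalled in all. The filter alternatives, the intensity trend and the methods' t-test left the core ratios as they were, so they could not change a sign. For genes with 1 tested probe the same holds for the median of all tested probes. The series table gave the same core ratios as the processed signals. Signs turned for Hand1 (-0.015 with processed signals or the series table), for Hand2 (0.0023 with either of these, 0.019 without background correction, 0.047 with scaled arrays and -0.15 to 0.061 leaving out 1 replicate) and for Gata5 (-0.16 to 0.11 leaving out 1 replicate). Gata4 ran from 0.36 to 0.83 over the leave-one-out fits and was called only without replicate 3, so that core genes called higher numbered 0 to 1. Of the other factors 0 to 1 were called lower in these fits (Irx5). Their median turned from 0.01 to -0.09 with processed signals or the series table, -0.031 without background correction, -0.059 with median centring, -0.011 with scaled arrays and -0.044 without replicate 2. The median of the target genes was -0.13 with processed signals or the series table, -0.11 without background correction or with scaled arrays, -0.15 with median centring, and -0.13 to -0.042 leaving out 1 replicate. Without saturated genes, an alternative chosen after seeing the data, it was -0.034.

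Counts over all tested probes depended on the setting. Against 395 higher and 1 lower, processed signals, the series table, scaled arrays and the methods' t-test gave 0 and 0, no background correction and the software version as a block 1 and 0, and no filter on dim probes 145 and 0. Lower calls numbered 2 with median centring or a signal of at least 20, 14 with arrayWeights and 3 with an intensity trend. Leaving out 1 replicate gave 1 to 1533 higher and 0 to 247 lower. With median centring the split at an unadjusted p under 0.05 was 1925 higher to 1938 lower, against 2566 to 1208. By the 1.2-fold rule, 960 higher, 1 of them in the core, and 414 lower passed with no p criterion, 1154 and 348 with loess ratios, and 940 to 1462 and 132 to 708 without 1 replicate, against 585 and 36. The within-array ratios tested are themselves paired differences. Beyond them no paired analysis was possible because no replicate block is left to fit. For these changes the cause was not tested.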
